A study of Mus musculus with 11 samples.

Results

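Matricellular glycoproteins are described here through 10 genes of NIH/3T3 mouse fibroblasts: Postn, Sparc, Sparcl1, Tnc, Thbs1, Thbs2, Thbs3, Fn1, Spp1 and Tgfbi. They were taken by gene symbol from a table of 21684 genes, and all 10 passed the filter on low counts that left 13332 genes for testing. The 11 RNA-seq libraries came from 4 genotypes, namely unedited wild-type cells (WT, 2 libraries) and lines with a knockout of Xap5, Nono or Sox5 (KO, 3 libraries each). All 4 groups spent 24 h in serum-free medium before RNA was taken, a step used to induce a primary cilium, and the study asked which genes changed in common or separately in the 3 knockouts. NIH/3T3 is an established line of mouse embryonic fibroblasts. The labels name no separate clones or cultures, so each knockout was taken as 1 line, and p-values measure only the spread between these libraries.

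Matricellular proteins are secreted into the extracellular matrix but mostly regulate how cells attach, migrate and respond to growth factors rather than bear load. Tenascin, thrombospondins, SPARC, periostin and osteopontin are the classical examples, and many of them are low in resting tissue and high during wound repair and fibrosis. Fibronectin is a structural matrix protein to which several of them bind, and integrins, CD44, CD47 and the endocytic receptor LRP1 are among their receptors on fibroblasts.

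Promoter windows are shown for Postn, Tnc and Spp1, which moved in the same direction in all 3 knockouts, and for Thbs2, which rose in only some of them. RefSeq promoter windows of GRCm38.p6 matched 7 of the 10 members with 10 start sites, and none was used for Fn1, Sparcl1 or Thbs1. Each line below gives the 200 bases before a start site, 5′ to 3′ on the gene's strand, none of which overlaps an annotated exon. Sparc and Tgfbi also moved in the same direction in all 3 knockouts. Their windows, and those of another Tnc start and another Spp1 start, overlap annotated exons and are not shown. The upstream Postn start follows chr3:54359067-54359266 on the plus strand and the downstream one follows chr3:54360907-54361106 on the plus strand. The Tnc window is chr4:64047016-64047215 on the minus strand, the Thbs2 window is chr17:14694263-14694462 on the minus strand, and the Spp1 window is chr5:104434911-104435110 on the plus strand. Capitals mark matches, on either strand, to the SOX core AACAAT, the TATA box TATAAA, the CCAAT box CCAAT or the SMAD element CAGAC.
Postn upstream start: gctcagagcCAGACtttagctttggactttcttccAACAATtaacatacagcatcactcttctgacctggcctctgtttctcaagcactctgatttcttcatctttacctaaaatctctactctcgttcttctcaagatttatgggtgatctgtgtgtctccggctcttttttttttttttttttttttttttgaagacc
Postn downstream start: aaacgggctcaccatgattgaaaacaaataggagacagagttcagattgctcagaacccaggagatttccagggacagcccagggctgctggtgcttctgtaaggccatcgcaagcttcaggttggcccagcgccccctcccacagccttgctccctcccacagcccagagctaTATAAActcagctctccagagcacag
Tnc: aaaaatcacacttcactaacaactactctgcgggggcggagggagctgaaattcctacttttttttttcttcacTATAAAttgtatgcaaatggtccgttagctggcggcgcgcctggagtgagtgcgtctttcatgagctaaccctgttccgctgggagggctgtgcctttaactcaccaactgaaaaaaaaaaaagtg
Thbs2: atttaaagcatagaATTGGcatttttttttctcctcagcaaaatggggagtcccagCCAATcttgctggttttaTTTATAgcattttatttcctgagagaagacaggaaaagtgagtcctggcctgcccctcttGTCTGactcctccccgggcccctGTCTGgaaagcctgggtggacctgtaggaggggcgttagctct
Spp1: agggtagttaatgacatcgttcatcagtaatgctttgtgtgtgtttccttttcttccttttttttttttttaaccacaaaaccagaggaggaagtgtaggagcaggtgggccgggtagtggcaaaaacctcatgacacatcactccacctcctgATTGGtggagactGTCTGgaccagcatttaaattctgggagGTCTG
The motif letters were chosen after these sequences had been seen, and their matches are descriptions only. A window here runs from 250 bases before to 50 after a start site. The SOX core stood in 10.7% of all 32851 such windows and in 1 of the 10 member windows, that of the upstream Postn start, where it begins at base -165. TATAAA stood in 13.6% of all windows and in 5 member windows, and in the downstream Postn window it begins 26 bases before the start. The other matches lie farther from their starts, at base -126 for Thbs2 (on the other strand), -211 for Spp1, and -205 and -126 for the Tnc starts. CCAAT stood in 37.4% of all windows and in 4 member windows, and CAGAC in 49.6% and in 8. The windows of the Tnc starts overlap, so 1 TATAAA and 1 CAGAC match are counted there in both windows. The AP-1 site TGANTCA stood in 7.81% of all windows and in 0 of the member windows. The SOX core and the CCAAT box share the run CAAT, so their matches are not independent in letters.

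Depth ran from 30205878 to 43498383 counts per library, and levels are given as CPM, the usual depth-scaled count, on totals scaled by TMM factors. Fam50a, the mouse symbol for the gene called Xap5 in the labels, was at 7.49 to 7.91 CPM in Xap5 KO against 62.9 to 64.8 in WT. Nono was at 27.6 to 34 CPM in Nono KO against 351 to 357 in WT. Sox5 was at 12.6 to 13.9 CPM in Sox5 KO against 45.9 to 49.7 in WT, and it was also low in Xap5 KO (11.9 to 15 CPM) and in Nono KO (7.01 to 8.75 CPM). Of the 10 fibroblast markers, all had counts in every group, but Fap stood at only 0 and 0.136 CPM in WT. Their summed level was 10300 to 10600 CPM in WT, 27900 to 33400 in Nono KO, 13700 to 14300 in Sox5 KO and 10100 to 10500 in Xap5 KO. In Nono KO against WT, mean CPM was 6972.1 against 1089.5 for Col1a1, 10527 against 3271.5 for Col1a2 and 4903.3 against 379.2 for Col3a1, whereas Pdgfra (log2 -0.025, edgeR adjusted p = 0.762) and Pdgfrb (-0.027, edgeR adjusted p = 0.745) were not called. Summed markers of endothelial cells, epithelium and muscle were at most 4.12 CPM in any library. The macrophage markers summed to 2.56 to 2.72 CPM in WT, 3.94 to 5.28 in Xap5 KO, 2.58 to 3.96 in Sox5 KO and 7.75 to 11.6 in Nono KO, where Ptprc was at 6.66 CPM against 0.107 in WT. The other tested macrophage markers, Cd68 (0.004, edgeR adjusted p = 0.999) and Csf1r (0.30, edgeR adjusted p = 0.722), were not called in Nono KO against WT. Adgre1, Itgam and C1qa did not pass the filter on low counts. The part of these marker genes in the members' values was not tested. In bulk RNA, fewer cells of a type and less RNA per cell cannot be told apart.

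The 10 genes split by direction. Postn, Sparc, Tnc and Thbs1 rose in all 3 knockouts (4 of 10, against 8.33% of all tested genes), and Sparcl1, Spp1 and Tgfbi fell in all 3 (3 of 10, against 7.61%). On library totals 3 rose in all 3, the exception being Tnc, and without WT replicate 1 or Xap5 KO replicate 2 the number that fell was 2, the exception being Tgfbi (-0.38 and -0.39 in Xap5 KO). Fn1 and Thbs3 rose in Nono KO and fell in Xap5 KO and Sox5 KO, although the fall of Thbs3 in Sox5 KO held under only 10 of 19 alternative settings. Thbs2 rose in Xap5 KO and Sox5 KO. Genes were called at an adjusted p under 0.05 from the quasi-likelihood test of edgeR, with Benjamini-Hochberg adjustment over all 13332 genes. In Xap5 KO against WT 10 members were called, where 45.5% of all tested genes were, 5 of them higher (23.2% of all genes) and 5 lower (22.3%). In Nono KO 9 members were called against 48.6% of all genes, 6 higher (23.5%) and 3 lower (25.1%). In Sox5 KO 10 members were called against 60.9%, 5 higher (30.6%) and 5 lower (30.3%). Changes of at least 2-fold among the called were found in 7 members in Sox5 KO (17.2% of all genes), 6 in Nono KO (11.2%) and 5 in Xap5 KO (10.3%). The members' median absolute log2 fold change against WT was 1.80 for Sox5 KO, 1.44 for Nono KO and 1.01 for Xap5 KO, where all tested genes had medians of 0.50, 0.34 and 0.32. The 3 knockouts share the WT libraries, so their values are given side by side and not as independent support for one another. The members were chosen with earlier results of these data known. All held at least 250 counts in each library, where the filter's minimum count was 10. The shares of all tested genes, here and below, are therefore given for scale and are not a test.

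**Figure D1:**
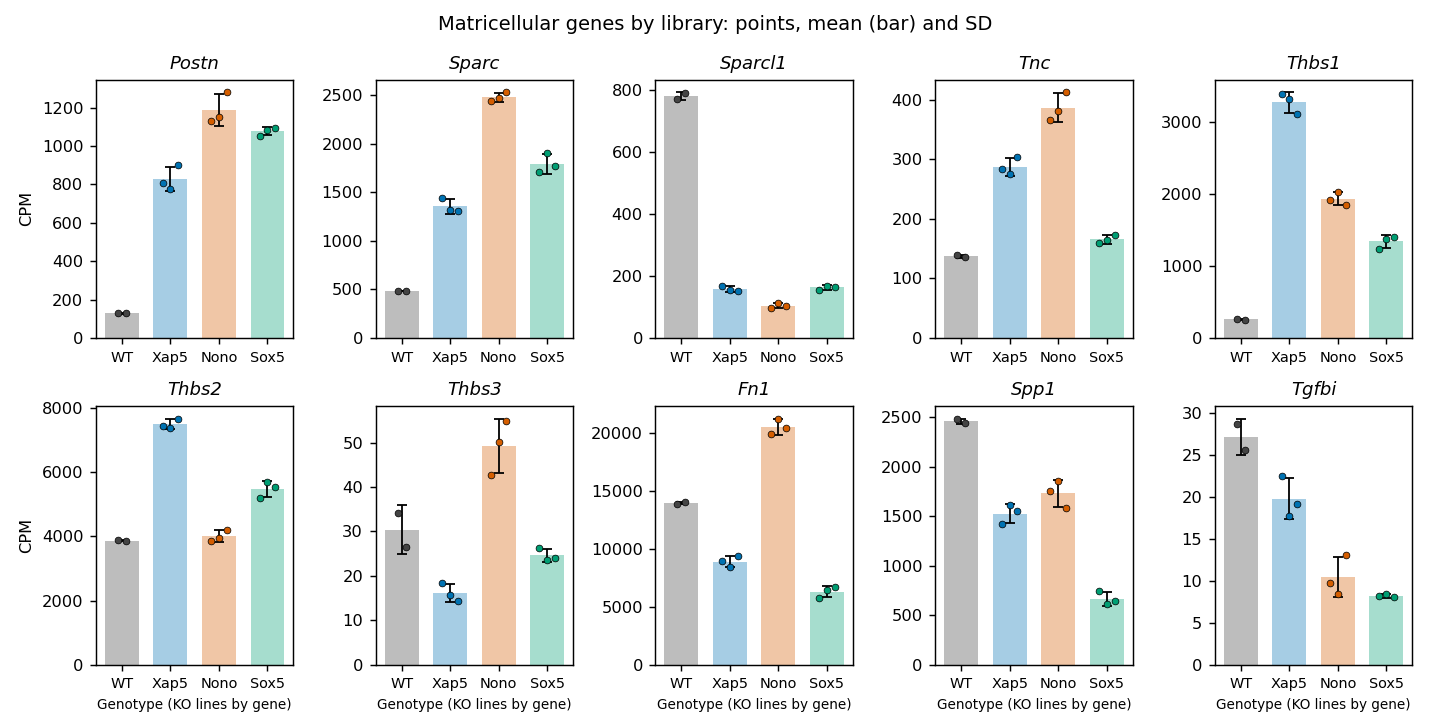
CPM of each of the 10 genes (vertical axis, starting at 0) by genotype (horizontal axis). Points are libraries, bars are means and whiskers are SD (n = 2 for WT, n = 3 for each knockout). The 9 knockout libraries of Postn, Sparc, Tnc and Thbs1 all sit above WT, and those of Sparcl1, Spp1 and Tgfbi all sit below it.

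Among the thrombospondins, Thbs1 moved most. Its product, a trimeric glycoprotein that can activate latent TGF-beta and that binds CD47 and CD36, is a textbook inhibitor of angiogenesis. Thbs1 stood at 267.2 and 255.3 CPM in WT, 3397.4, 3320.4 and 3116.2 in Xap5 KO, 1918.7, 2035.5 and 1854.3 in Nono KO, and 1237.2, 1384.5 and 1408.8 in Sox5 KO. The 4 groups did not overlap, and the lowest knockout library was 4.63 times the highest WT library. Thbs1 rose by 3.65 ± 0.08 (log2 fold change ± SE, 12.5-fold) in Xap5 KO (edgeR adjusted p = 2.22e-18). It rose by 2.89 ± 0.08 (7.41-fold) in Nono KO (edgeR adjusted p = 1.58e-17) and by 2.36 ± 0.07 (5.14-fold) in Sox5 KO (edgeR adjusted p = 2.03e-16). The knockouts also differed from each other, with Xap5 KO above Nono KO by 0.76 ± 0.06 on the log2 scale (edgeR adjusted p = 9.87e-10) and Nono KO above Sox5 KO by 0.53 ± 0.06 (edgeR adjusted p = 1.27e-07).

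Thbs2, the other trimeric thrombospondin, which takes part in collagen fibril assembly and in the clearance of matrix proteases, started from a far higher level. It stood at 3889.5 and 3854.3 CPM in WT, 7435.8, 7396.8 and 7680.7 in Xap5 KO, 3872.3, 3952.2 and 4213.2 in Nono KO, and 5195.9, 5694.1 and 5540.5 in Sox5 KO. Xap5 KO and Sox5 KO lay above WT without overlap, whereas the lowest Nono KO library lay between the WT libraries. Thbs2 rose 1.94-fold in Xap5 KO (log2 0.95 ± 0.06, edgeR adjusted p = 1.22e-10) and 1.41-fold in Sox5 KO (log2 0.50 ± 0.06, edgeR adjusted p = 6.91e-07). In Nono KO the difference was 0.05 on the log2 scale, with a 95% interval from -0.08 to 0.18 (edgeR adjusted p = 0.532), and its sign turned to -0.11 when libraries were scaled by their totals alone. The Sox5 KO value grew to 0.83 once transcript length and GC content were corrected for by an offset. Xap5 KO stood above Sox5 KO by 0.45 ± 0.06 (edgeR adjusted p = 4.7e-07), and Sox5 KO above Nono KO by 0.45 ± 0.06 (edgeR adjusted p = 5.01e-07).

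Thbs3, a pentameric thrombospondin known from the growing skeleton, was low and moved in opposite directions. Its levels were 34.3 and 26.6 CPM in WT, 42.8 to 54.9 in Nono KO, 23.7 to 26.3 in Sox5 KO and 14.4 to 18.4 in Xap5 KO. The groups did not overlap, but Sox5 KO reached to just under the lower WT library, and the WT libraries lay far apart for this gene (coefficient of variation 17.9%). Thbs3 fell by 0.91 ± 0.12 in Xap5 KO (edgeR adjusted p = 5.21e-06) and rose by 0.70 ± 0.13 in Nono KO (edgeR adjusted p = 0.000108). The fall of 0.30 ± 0.12 in Sox5 KO was near the threshold (edgeR adjusted p = 0.0432). It was not called without WT replicate 1 (-0.115), Xap5 KO replicate 2 (-0.31), Nono KO replicate 2 (-0.30), Sox5 KO replicate 2 (-0.27) or Sox5 KO replicate 3 (-0.28), nor by the DESeq2 Wald test (-0.30, adjusted p = 0.0557), the length and GC offset (-0.19) or an offset for each chromosome's median (-0.08). Without WT replicate 2 it was -0.48. Exons of Mtx1 overlap Thbs3 on the other strand in GENCODE M21, and Mtx1 held 871 to 1262 counts per library, so Thbs3 is uncertain here if reads were assigned without regard to strand.

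The relation between the trimeric thrombospondins shifted with genotype. Per kb of transcript, the ratio of Thbs1 to Thbs2 was 0.068 ± 0.0018 in WT (SD, n = 2). With n = 3 each it was 0.487 ± 0.039 in Nono KO, 0.441 ± 0.028 in Xap5 KO and 0.247 ± 0.0083 in Sox5 KO. Every knockout library lay above WT, and Xap5 KO overlapped Nono KO. This ratio, and those given further on, were chosen after the levels had been seen and carry no test.

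In the SPARC family, the 2 members went opposite ways. Sparc encodes a collagen-binding, calcium-binding glycoprotein that acts in collagen processing and loosens cell adhesion. Sparc stood at 484.6 and 485.6 CPM in WT, 1441.1, 1321.2 and 1305.6 in Xap5 KO, 2443.3, 2469.7 and 2535.1 in Nono KO, and 1705.8, 1903.5 and 1772.4 in Sox5 KO. The groups were fully apart, in the order Nono KO, Sox5 KO, Xap5 KO, WT, and each knockout library was at least 2.69 times the highest WT library. Sparc rose by 1.48 ± 0.07 in Xap5 KO (2.79-fold, edgeR adjusted p = 1.27e-13). It rose by 2.35 ± 0.07 in Nono KO (5.12-fold, edgeR adjusted p = 8.09e-17) and by 1.89 ± 0.07 in Sox5 KO (3.70-fold, edgeR adjusted p = 1.78e-15). Neighbours in this order differed, Nono KO from Sox5 KO by 0.47 ± 0.06 (edgeR adjusted p = 2.48e-07) and Sox5 KO from Xap5 KO by 0.40 ± 0.06 (edgeR adjusted p = 2.18e-06). The collagen genes among the fibroblast markers were also highest in Nono KO (Col1a1 at 6972.1 CPM against 1089.5 in WT), while Pdgfra and Pdgfrb were not called there, and the part of these markers in the Sparc level was not tested.

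Sparcl1, also called hevin, is the closest relative of Sparc and is known as an anti-adhesive protein of vessels and of astrocytes, where it promotes synapse formation. It stood at 771.1 and 789.9 CPM in WT, 169.4, 155.4 and 151.2 in Xap5 KO, 95.3, 113.9 and 104.6 in Nono KO, and 155.5, 169.2 and 164.2 in Sox5 KO. The highest knockout library was 22% of the lowest WT library, and Xap5 KO overlapped Sox5 KO. Sparcl1 fell by 2.30 ± 0.07 in Xap5 KO (4.92-fold lower, edgeR adjusted p = 1.89e-16). In Nono KO it fell by 2.90 ± 0.07 (7.46-fold lower, edgeR adjusted p = 6.95e-18), and it fell by 2.26 ± 0.07 in Sox5 KO (4.79-fold lower, edgeR adjusted p = 1.66e-16). Nono KO lay below Xap5 KO by 0.60 ± 0.06 (edgeR adjusted p = 7.73e-08). Xap5 KO and Sox5 KO differed by -0.04, with a 95% interval from -0.17 to 0.09 (edgeR adjusted p = 0.618). The sign turned on library totals (0.02) and with the length and GC offset (0.08), and the groups were called apart with the chromosome offset (-0.28, adjusted p = 0.000582).

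Per kb of transcript, the ratio of Sparc to Sparcl1 was 0.746 ± 0.012 in WT (SD, n = 2), so WT cells held slightly more Sparcl1 than Sparc. It was 28.6 ± 2.4 in Nono KO, 13.2 ± 0.27 in Sox5 KO and 10.3 ± 0.089 in Xap5 KO (SD, n = 3 each). The 4 groups did not overlap, so Sparc exceeded Sparcl1 per kb in every knockout library and in no WT library.

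Postn and Tgfbi are related through their fasciclin domains, and they also moved apart. Periostin, the product of Postn, binds integrins and collagen, cross-links matrix and is known as a marker of activated fibroblasts. Postn stood at 131.2 and 127.9 CPM in WT, 806.4, 777.2 and 898.9 in Xap5 KO, 1129.7, 1149.1 and 1280.8 in Nono KO, and 1054.3, 1083 and 1093 in Sox5 KO. Every knockout library was at least 5.92 times the highest WT library. Postn rose by 2.67 ± 0.08 in Xap5 KO (6.39-fold, edgeR adjusted p = 6.45e-17), by 3.20 ± 0.08 in Nono KO (9.16-fold, edgeR adjusted p = 6.95e-18) and by 3.06 ± 0.08 in Sox5 KO (8.31-fold, edgeR adjusted p = 1.32e-17). Xap5 KO was the lowest of the knockouts, 0.52 ± 0.06 below Nono KO (edgeR adjusted p = 3e-07) and 0.38 ± 0.06 below Sox5 KO (edgeR adjusted p = 1.28e-05).

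Nono KO and Sox5 KO were not separated firmly for Postn. Their difference of 0.14 ± 0.06 passed the threshold (edgeR adjusted p = 0.0482). It was not called without Nono KO replicate 3 (0.082) or without Sox5 KO replicate 1 (0.125), 2 (0.144) or 3 (0.151), nor on library totals (0.091). It became -0.085 with the length and GC offset and -0.149 with the chromosome offset. The counts do not separate the start sites shown for Postn.

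Tgfbi, named for its induction by TGF-beta, encodes a collagen-binding adhesion protein. It was among the least abundant members, at 28.7 and 25.6 CPM in WT, 17.8 to 22.4 in Xap5 KO, 8.43 to 13.1 in Nono KO, with 8.01 to 8.47 in Sox5 KO. No knockout library reached WT, and Nono KO and Sox5 KO overlapped. Tgfbi fell by 1.38 ± 0.15 in Nono KO (edgeR adjusted p = 1.59e-07) and by 1.72 ± 0.15 in Sox5 KO (edgeR adjusted p = 4.28e-09). The fall of 0.46 ± 0.15 in Xap5 KO (edgeR adjusted p = 0.0175) was not called without WT replicate 1 (-0.38) or without Xap5 KO replicate 2 (-0.39). Xap5 KO stood above Nono KO by 0.93 ± 0.14 (edgeR adjusted p = 1.01e-05). Nono KO stood above Sox5 KO by 0.34 ± 0.15 (edgeR adjusted p = 0.048), a call that was lost without WT replicate 1 (0.35), Nono KO replicate 3 (0.14) or Sox5 KO replicate 1 (0.34), 2 (0.36) or 3 (0.32). It was also lost on library totals (0.29), with only these groups in the fit (0.35) and with the chromosome offset (0.20).

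Tnc encodes tenascin-C, a large hexameric protein that is laid down in wounds and counteracts adhesion to fibronectin. It stood at 139.1 and 135.6 CPM in WT, 284.3, 274.6 and 304 in Xap5 KO, 366, 380.5 and 412.9 in Nono KO, and 158.8, 164.7 and 173.1 in Sox5 KO. The 4 groups were apart, with Sox5 KO only just above WT. Tnc rose by 1.07 ± 0.07 in Xap5 KO (2.09-fold, edgeR adjusted p = 3.11e-11) and by 1.49 ± 0.07 in Nono KO (2.81-fold, edgeR adjusted p = 1.22e-13). The rise in Sox5 KO was 0.27 ± 0.07 (1.21-fold, edgeR adjusted p = 0.00121). It was 0.155 and not called on library totals (adjusted p = 0.052), and 0.73 with the length and GC offset. Nono KO stood above Xap5 KO by 0.43 ± 0.06 (edgeR adjusted p = 2.24e-06) and Xap5 KO above Sox5 KO by 0.80 ± 0.06 (edgeR adjusted p = 1.62e-10).

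Fn1, which encodes fibronectin, the fibrillar matrix protein bound by integrin alpha5 beta1, was the most counted of the 10 genes in WT and moved in both directions. It stood at 13897 and 14022 CPM in WT, 8945.5, 8403.2 and 9330.1 in Xap5 KO, 19886, 21222 and 20402 in Nono KO, and 5757.3, 6403.7 and 6733 in Sox5 KO. The groups did not overlap, in the order Nono KO, WT, Xap5 KO, Sox5 KO. Fn1 rose by 0.55 ± 0.07 in Nono KO (1.47-fold, edgeR adjusted p = 2.05e-06). It fell by 0.65 ± 0.07 in Xap5 KO (1.57-fold lower, edgeR adjusted p = 1.97e-07) and by 1.15 ± 0.07 in Sox5 KO (2.22-fold lower, edgeR adjusted p = 1.13e-11). With the length and GC offset the fall in Sox5 KO was smaller (-0.586) and remained called. The direct difference between Nono KO and Sox5 KO was 1.70 ± 0.07 (3.26-fold, edgeR adjusted p = 6.33e-15). Xap5 KO stood above Sox5 KO by 0.50 ± 0.06 (edgeR adjusted p = 9.02e-07), but by 0.08 and not called with the length and GC offset (adjusted p = 0.209). The collagen genes Col1a1, Col1a2 and Col3a1 rose with Fn1 in Nono KO, and Pdgfra and Pdgfrb were not called there. In Sox5 KO, where Fn1 fell, these collagen genes were called higher (log2 0.698, 0.63 and 0.606). In Xap5 KO, where Fn1 also fell, Col1a1 rose (0.868), Col1a2 was not called (0.046) and Col3a1 fell (-1.003). Of all 10 fibroblast markers, 8 were called higher and 0 lower in Nono KO (23.5% and 25.1% of all tested genes). In Sox5 KO 7 were called higher and 2 lower, Lum (-3.69) and Pdgfra (-1.032), beside 30.6% and 30.3% of all genes. In Xap5 KO 4 were called higher and 4 lower, Lum (-2.143) among them, beside 23.2% and 22.3%. The part of these markers was not tested.

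Spp1 encodes osteopontin, a phosphorylated, integrin- and CD44-binding glycoprotein found in bone and in inflamed tissue. It stood at 2480 and 2440.5 CPM in WT, 1420.1, 1615.1 and 1548.8 in Xap5 KO, 1754, 1859.8 and 1586.7 in Nono KO, and 739.9, 609.5 and 639.6 in Sox5 KO. All 9 knockout libraries lay below WT, the highest at 76.2% of the lowest WT library, and Sox5 KO lay below the other knockouts. Spp1 fell by 1.89 ± 0.08 in Sox5 KO (3.71-fold lower, edgeR adjusted p = 7.22e-14). It fell by 0.69 ± 0.08 in Xap5 KO (edgeR adjusted p = 5.69e-07) and by 0.50 ± 0.08 in Nono KO (edgeR adjusted p = 2.38e-05), the last of which was -0.29 with the chromosome offset and still called. Sox5 KO lay below Xap5 KO by 1.20 ± 0.07 (edgeR adjusted p = 1.88e-11). Xap5 KO lay below Nono KO by 0.18 ± 0.07 (edgeR adjusted p = 0.0391) with overlapping libraries, and that call was lost without Xap5 KO replicate 1 (-0.151) or 3 (-0.205) and without Nono KO replicate 1 (-0.174) or 2 (-0.129), as well as on library totals (-0.07). Markers of osteoblasts, a cell type known for osteopontin, summed to 77.3 to 79.6 CPM in WT, 83.2 to 88.9 in Nono KO, 70 to 86.5 in Xap5 KO and 66.1 to 77.4 in Sox5 KO, with 4 of 6 markers tested. Runx2 alone was at 74.3 CPM in WT, so the sum mostly shows that gene. Runx2 was not called against WT in any knockout (0.005 for Xap5 KO, 0.182 for Nono KO, -0.05 for Sox5 KO). Alpl and Bglap, tested at low levels, were not called either and had values of both signs. In the same order, Alpl was at 1.78, -0.486 and 0.82, and Bglap at -2.685, 2.265 and 0.872. The osteoblast marker Dmp1 was called lower in all 3 knockouts (-1.72 for Xap5 KO, -2.23 for Nono KO, -5.005 for Sox5 KO), as Spp1 was, but leaving out single libraries ended its call in Xap5 KO (for example -1.81 without WT replicate 1) and in Nono KO (-2.15 without WT replicate 2). Another marker, Ibsp, held 12 and 8 counts in WT and at most 3 in any knockout library. Dmp1 and Ibsp lie between Sparcl1 and Spp1 on chromosome 5. The part of these markers in the Spp1 values was not tested.

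**Figure D2:**
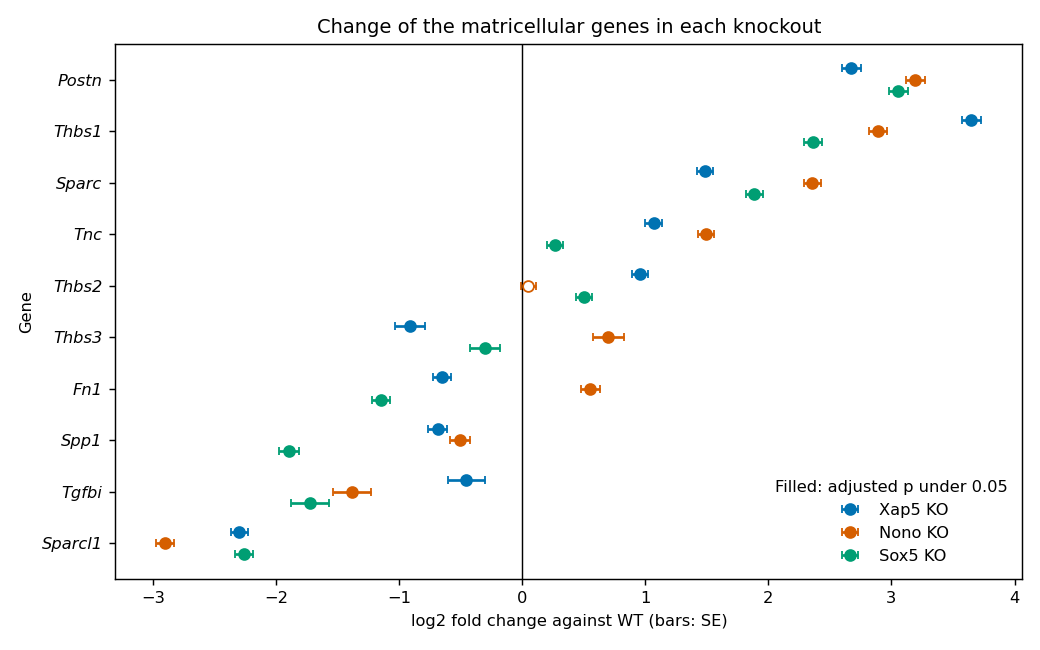
Log2 fold change of each gene against WT (horizontal axis) for the 3 knockouts, with SE as bars. Filled points passed an adjusted p of 0.05 and the only open point is Thbs2 in Nono KO at 0.05. Points run from -2.9 for Sparcl1 in Nono KO to 3.65 for Thbs1 in Xap5 KO, and Fn1 and Thbs3 have points on both sides of 0.

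Direct comparisons between knockouts used the same fit. In Xap5 KO against Nono KO 10 members were called, against 53% of all tested genes, 4 higher (27.1% of all genes) and 6 lower (25.9%). In Xap5 KO against Sox5 KO 9 were called, against 61.6%, 6 higher (31.1%) and 3 lower (30.4%), the exception being Sparcl1. In Nono KO against Sox5 KO 10 were called, against 63.5%, 8 higher (30.9%) and 2 lower (32.6%). Called changes of at least 2-fold numbered 2, 3 and 4 in these comparisons, against 11.1%, 15% and 17% of all genes. The members' median absolute log2 difference was 0.82, 0.55 and 0.58 in these comparisons, against 0.34, 0.45 and 0.48 over all tested genes. In all, 8 of the 10 members were called in each of the 6 comparisons, against 7.61% of all tested genes, and Thbs2 and Sparcl1 were each called in 5. That count was not stable. It was 4 on library totals, and 5 with the length and GC offset, without Sox5 KO replicate 2 or without Sox5 KO replicate 3. The largest gaps between knockouts were those of Fn1 between Nono KO and Sox5 KO (1.70) and of Thbs3 between Xap5 KO and Nono KO (3.05-fold, log2 -1.61).

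Levels of different genes can be compared only per length, here as CPM per kb of the longest GENCODE M21 transcript. In WT, Fn1 (1679 ± 10.6 CPM per kb, SD, n = 2) and Spp1 (1633 ± 18.5) led, followed by Thbs2 (656.8 ± 4.2), Sparcl1 (282.9 ± 4.8) and Sparc (210.9 ± 0.31). Thbs1 (44.7 ± 1.4 CPM per kb), Postn (24.8 ± 0.45) and Tnc (19.3 ± 0.34) were low, and Tgfbi (9.04 ± 0.73) and Thbs3 (7.54 ± 1.4) lay within their spread of each other. In Xap5 KO the leader was Thbs2 at 1273 ± 26.1 CPM per kb (SD, n = 3), ahead of Fn1 (1070 ± 56) and Spp1 (1014 ± 65.8), which lay within their spread of each other. Sparc (589.5 ± 32.2 CPM per kb) and Thbs1 (560.5 ± 24.8) came next there, also within their spread. In Nono KO Fn1 led at 2466 ± 81 CPM per kb, and Spp1 (1150 ± 91.4) and Sparc (1079 ± 20.6) lay within their spread of each other. In Sox5 KO Thbs2 led at 929.1 ± 43.3 CPM per kb, followed by Sparc (779.9 ± 43.7) and Fn1 (757.4 ± 59.7), which also lay within their spread.

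**Figure D3:**
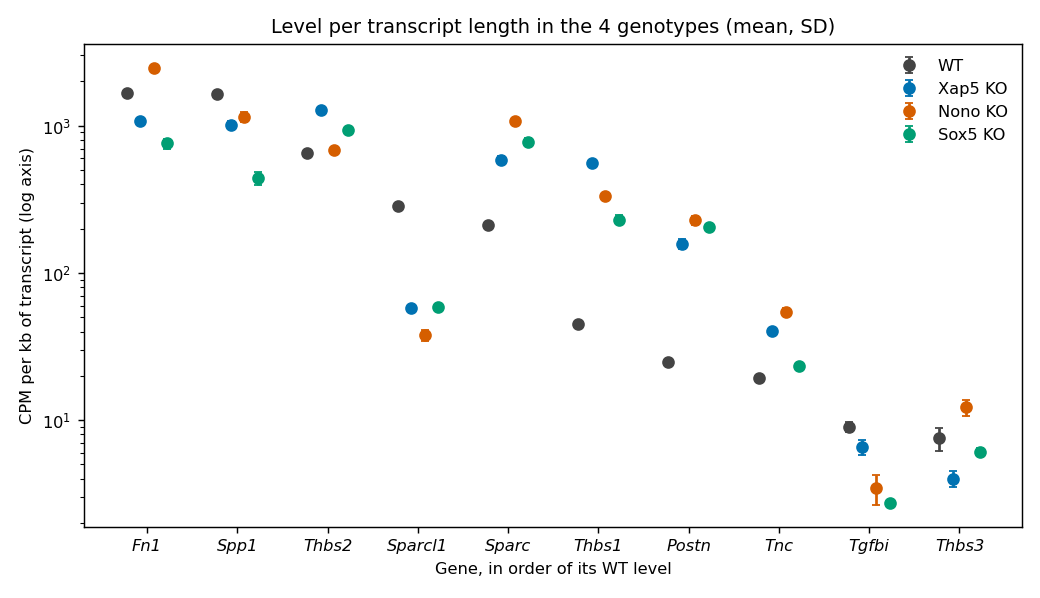
Level per transcript length (CPM per kb, log axis) of the 10 genes, ordered by their WT level, with mean and SD (n = 2 for WT, n = 3 for each knockout). Sparcl1 drops from 282.9 CPM per kb in WT to at most 59.1 in the knockouts, while Thbs1 and Postn climb from 44.7 and 24.8 CPM per kb in WT to between 229.7 and 560.5 and between 158.4 and 227.2 in the knockouts.

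Sparcl1 went from above Sparc in WT to 59.1 ± 2.5 CPM per kb in Sox5 KO, 57.5 ± 3.4 in Xap5 KO and 37.9 ± 3.4 in Nono KO. The ratio of Fn1 to Spp1 per kb was 1.03 ± 0.018 in WT and 1.06 ± 0.10 in Xap5 KO, and it was 2.15 ± 0.16 in Nono KO and 1.74 ± 0.29 in Sox5 KO. WT and Xap5 KO overlapped in this ratio and lay below both other groups. Together the 10 genes took 2.36% of all counts in WT, 1.67% ± 0.08 in Sox5 KO, 2.45% ± 0.083 in Xap5 KO and 3.08% ± 0.064 in Nono KO (n = 3 each, with SD). Of this, Fn1 alone took 1.95% in Nono KO, 1.49% in WT, 0.913% in Xap5 KO and 0.619% in Sox5 KO.

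Among the 45 pairs of members, Pearson's r of log2 CPM over the 11 libraries described which profiles ran alike. The libraries fall into 4 genotypes, so each r mostly reflects 4 group means, and no p is given. Postn and Sparc had the highest r (0.965), followed by Postn and Thbs1 (0.854), and Sparc and Thbs1 as well as Fn1 and Spp1 (0.759 each). Sparcl1 ran opposite to Postn (-0.976), to Sparc (-0.968) and to Thbs1 (-0.879). Thbs2 ran opposite to Thbs3 (-0.875) although they belong to 1 family, and Fn1 had an r of 0.062 with Sparc.

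Over all 11544 tested genes with a mean of at least 1 CPM, the gene whose profile was most like that of a member was sought by the same r. For Sparcl1 these were Adgrg1, an adhesion receptor (0.991), the knocked-out gene Sox5 (0.985) and Mex3d (0.979). Adgrg1 was at 47.5 ± 1.65 CPM in WT (mean ± SD of 2 libraries). With 3 libraries each, it was at 9.94 ± 0.784 in Xap5 KO, 9.74 ± 1.08 in Sox5 KO and 6.71 ± 1.17 in Nono KO. Both Adgrg1 and Sox5 were thus low in all 3 knockouts, lowest in Nono KO, as Sparcl1 was. Postn was most like Nnmt (0.996), the gene of a nicotinamide methyltransferase, and the actin cytoskeleton genes Actg1 (0.992) and Tpm1 (0.991). Sparc was most like Grk5 (0.998), the myosin light chain gene Myl9 (0.993) and Sp140 (0.990).

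Tnc was most like Pcdh19 (0.992), the collagen gene Col8a1 (0.992) and Mfsd6 (0.989). For Thbs1 the leading genes were the motor gene Myo1c (0.993), the vitamin D receptor gene Vdr (0.984) and Ptpn13 (0.983). For Thbs2 they were Akr1c12 (0.988), Mpnd (0.980) and Fblim1 (0.974), and for Thbs3 Osr2 (0.984), Lman1 (0.981) and Cyp2d22 (0.979). Fn1 was most like the kinase gene Ptk2b (0.993), the proteoglycan gene Lum (0.993) and Cped1 (0.988). Spp1 was most like Zfp354c (0.990), Ttll7 (0.988) and Togaram1 (0.988), and Tgfbi most like Trim62 (0.985), Iws1 (0.981) and Mindy4 (0.977). With Spearman's rho in place of r, the leading gene stayed among the leading 3 only for Tnc, Thbs1, Thbs2 and Thbs3, so the names depend on the measure.

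Sparcl1 and Spp1 are close on chromosome 5, with Dspp, Dmp1, Ibsp and Mepe between them. These genes belong with Spp1 to a family of phosphorylated proteins of bone and tooth matrix. In RefSeq gene order, all 8 tested protein-coding genes from Hsd17b11 to Thoc2l (Hsd17b11, Nudt9, Sparcl1, Dspp, Dmp1, Spp1, Pkd2 and Thoc2l) were lower and called in all 3 knockouts, where 7.61% of all tested genes were. The ends of this run were chosen after the values had been seen, so it is a description with no test. Pkd2, which encodes the ciliary channel polycystin-2, was at -2.37 (Xap5 KO), -1.29 (Nono KO) and -2.34 (Sox5 KO) on the log2 scale. Hsd17b11, a lipid droplet dehydrogenase gene, was at -1.46, -1.11 and -1.27 in the same order.

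Just outside the run the pattern stopped. Klhl8 on one side was at -0.37, -0.02 and -0.31 and was not called in any knockout. Zfp33b on the other side rose in Xap5 KO (1.32, edgeR adjusted p = 0.017) and was not called in Nono KO or Sox5 KO. The median log2 fold change over chromosome 5 was 0.05 with Xap5 KO, -0.20 with Nono KO and -0.19 with Sox5 KO. Dspp held 24 and 18 counts in WT and 0 in all knockout libraries, so against a floor of 3 counts per library it was lower by at least 6.62-fold (Xap5 KO), 6.55-fold (Nono KO) and 5.19-fold (Sox5 KO). Dmp1 held 136 and 165 counts in WT, 8, 48 and 72 in Xap5 KO, 27, 44 and 19 in Nono KO, and 0, 3 and 7 in Sox5 KO. The other 6 genes kept their calls in every setting, and the count of 8 fell to 6 without WT replicate 1 through Dspp and Dmp1. It fell to 7 through Dmp1 without WT replicate 2, Xap5 KO replicate 1 or 2, Nono KO replicate 1 or Sox5 KO replicate 2.

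**Figure D4:**
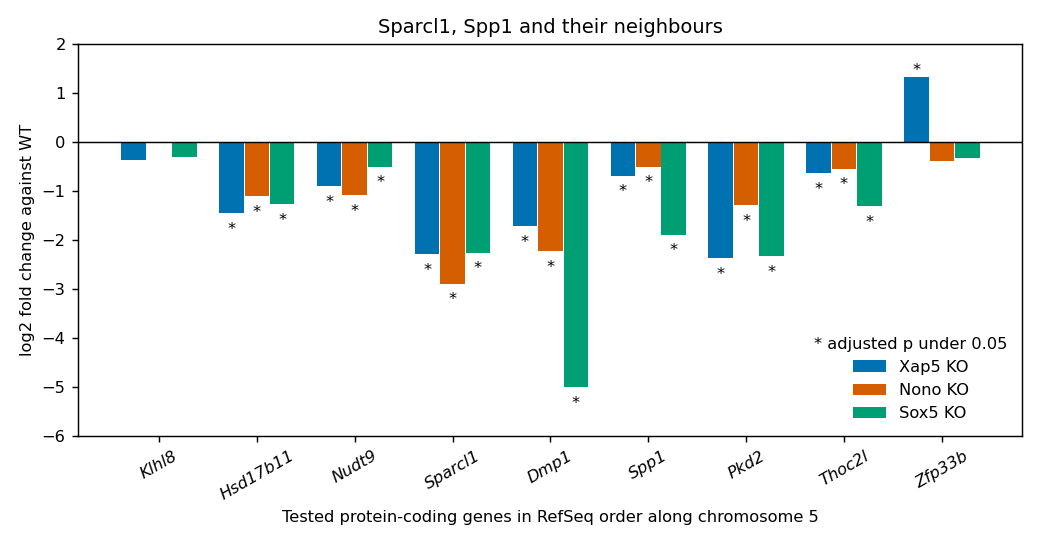
Log2 fold change against WT (vertical axis) of Sparcl1, Spp1 and the tested protein-coding genes around them in RefSeq order along chromosome 5, for the 3 knockouts. Dspp is not drawn because all knockout libraries held 0 counts. Bars from Hsd17b11 to Thoc2l all point down with an asterisk (adjusted p under 0.05), from -0.505 for Spp1 in Nono KO to -5.005 for Dmp1 in Sox5 KO.

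The wider matricellular family was read from a list of 41 other genes, of which 33 were tested. In Xap5 KO 11 rose and 9 fell, where 23.2% and 22.3% of all tested genes did, and the median log2 fold change was -0.02 against 0.003 over all genes. In Nono KO 18 rose and 6 fell, where 23.5% and 25.1% of all genes did, with a median of 0.54 against -0.02. In Sox5 KO 13 rose and 13 fell, where 30.6% and 30.3% did, with a median of -0.21 against -0.006. Mfap5, a microfibril component, rose by 3.02, 2.53 and 2.44 in the 3 knockouts in the same order, and Svep1, a large adhesion protein, by 2.08, 2.67 and 1.495. Fbln1, which encodes the elastic fibre protein fibulin-1, rose by 3.18 in Xap5 KO and 2.89 in Nono KO and was at -0.06 in Sox5 KO, where it was not called. Ccn3, a CCN family gene, was lower in all 3 (-2.33, -3.62 and -1.07). Ccn1, chosen here after its values were seen, encodes an integrin ligand and YAP target and rose by 2.47, 2.21 and 2.12.

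Edil3, an integrin ligand, was at 112.7 and 121.2 CPM in WT, 100.1 to 113.5 in Nono KO and 17.4 to 21.3 in Xap5 KO. In Sox5 KO it was at 0, 0.203 and 0 CPM. It was called lower in Xap5 KO (-2.60) and in Sox5 KO (edgeR adjusted p = 3.74e-12) and not called in Nono KO (-0.16).

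Receptors and uptake proteins for the members were a list of 18 genes, of which 14 were tested. In Xap5 KO 3 rose and 7 fell (23.2% and 22.3% of all tested genes), with a median log2 fold change of -0.15 against 0.003 over all genes. In Nono KO 7 rose and 5 fell (23.5% and 25.1% of all genes), with a median of 0.15 against -0.02. In Sox5 KO 3 rose and 8 fell (30.6% and 30.3% of all genes), with a median of -0.61 against -0.006. Cd44, the hyaluronan receptor that also binds osteopontin, fell in all 3 (log2 -0.90 ± 0.07, -1.31 ± 0.07 and -1.54 ± 0.07, edgeR adjusted p = 9.73e-10, 1.61e-12 and 8.23e-14). Itgb5, an integrin beta chain that pairs with alpha v, rose by 0.87 in Xap5 KO and 1.26 in Nono KO and fell by 0.96 in Sox5 KO. Itgb8, whose heterodimer with alpha v activates latent TGF-beta, rose by 0.70 and 1.70 and fell by 1.60 in the same order. Lrp1, the endocytic receptor that clears thrombospondins, fell by 0.91 in Xap5 KO and 1.47 in Sox5 KO and was at 0.12 in Nono KO, where it was not called.

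Several members are known targets of TGF-beta or YAP, and 18 other genes of those pathways were all tested. The list mixes ligand and receptor genes with responsive genes, so its counts and medians do not measure the responses. In Xap5 KO 10 rose and 6 fell, beside 23.2% and 22.3% of all tested genes, and the median was 0.36 against 0.003. In Nono KO 14 rose and 4 fell, beside 23.5% and 25.1%, and the median was 0.98 against -0.02. In Sox5 KO 6 rose and 9 fell, beside 30.6% and 30.3%, and the median was -0.07 against -0.006. The smooth muscle genes Acta2 and Tagln rose in all 3, Acta2 by 3.50, 3.91 and 4.30 and Tagln by 3.78, 4.78 and 4.05, again in that order. Cnn1, also a smooth muscle gene, held only 8 and 5 counts in WT. It was not called in Xap5 KO (1.59), called higher in Nono KO (3.51) and called lower in Sox5 KO, with 0, 0 and 2 counts. The ligand gene Tgfb1 fell in all 3 (-0.52, -0.81 and -0.80), while Tgfb3 fell by 0.65 in Xap5 KO and 1.43 in Sox5 KO and rose by 0.28 in Nono KO. The muscle marker Des had 0 counts in WT and, against a floor of 3 counts per library, stood at least 35-fold higher (Xap5 KO), 15.1-fold higher (Nono KO) and 27.1-fold higher (Sox5 KO). Of the other muscle markers, Myh11 was not called against WT in any knockout, and Myod1, Myog and Myh3 did not pass the filter on low counts. The part of Des in the members' changes was not tested.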

How the data were processed

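RNA-seq libraries of NIH/3T3 cells were grouped by the genotype in their labels. The authors deposited whole-number gene counts per library, taken here as rounded estimated counts, since 3302 cells of the table hold a 2 but only 857 hold a 1. Counting of mates could also give this, and the depths then refer to mates. The submitters' processing notes name HISAT2 2.1.0, StringTie 1.3.3b and DESeq2 1.12.4 and the builds GRCm39 and mm39, with no role or order; annotation and strand handling are not given in the sources used here. Tested genes passed edgeR's filter (minimum count of 10, minimum total of 15). All 11 libraries entered a single fit with 1 mean per group (edgeR 4.0.16, R 4.3.3, robust quasi-likelihood, TMM scaling), with Benjamini-Hochberg adjustment over 13332 genes. The common biological coefficient of variation was 10.6%.

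The members and gene lists were chosen with earlier results of these data known. All members are named, with the 3 genes of highest Pearson's r to each (log2 CPM, prior count 2) and, per list and contrast, the 3 called genes of largest change with a mean of at least 1 CPM; Ccn1, Fbln1 in Sox5 KO, Tgfb1, Tgfb3 and values of listed genes in further knockouts were added for completeness after their values were seen. A listed gene that the rule selects is not reported here. Lengths and overlaps came from GENCODE M21 and gene order from RefSeq, both of GRCm38. Exons of 5 members overlap another gene there: Spp1 on the same strand, and Tnc, Thbs1, Thbs3 and Fn1 on the opposite strand. Floors of 3 counts cover counting error only. The fit was tested on simulated data, and the criterion for passing was narrowed to well-counted genes, the range of the members, after it had been missed among genes with low counts. The printed promoter windows were lengthened after the sequences had been seen, which brought the SOX core match of Postn into view. Figures were drawn with matplotlib 3.10.9 in Python 3.11.15.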

Additional observations from a re-analysis of the deposited data

How the results depend on the processing

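The 60 member log2 fold changes (10 genes, 6 comparisons) were recomputed under 19 settings. DESeq2 1.42.0 size factors and omission of the low-count filter changed 0 calls, and the DESeq2 Wald test changed 1. Called members with at least a 2-fold change numbered 5 in Xap5 KO against WT, 2 in Xap5 KO against Nono KO, 3 in Xap5 KO against Sox5 KO and 4 in Nono KO against Sox5 KO, compared with 10, 10, 9 and 10 at any size. Members called in all 6 comparisons numbered 8, and 4 on library totals, 5 with the length and GC offset and 5 to 8 when single libraries were left out. Signs turned for Postn in Nono KO against Sox5 KO (-0.085 with the length and GC offset, -0.149 with the chromosome offset), for Sparcl1 in Xap5 KO against Sox5 KO (0.023 on library totals, 0.078 with the length and GC offset) and for Thbs2 in Nono KO against WT (-0.112 on library totals); the cause was not tested. Scaling by library totals moved the all-gene median to -0.183 in Nono KO and -0.12 in Sox5 KO against WT. Both offsets, and the recounts of the chromosome 5 genes and of calls shared between comparisons, were added after the data had been seen.

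Deviations of same-numbered libraries correlated between -0.023 and 0.046, and 0 of 15 pairs exceeded 0.1. Their median was 0.008, against -0.004 for libraries with different numbers. No strong pairing by replicate number was seen, and a weak one was not tested for. With the replicate number as a block, 10 members were called in Xap5 KO against WT, 9 in Nono KO, 9 in Sox5 KO, and 9 in each comparison between knockouts. The number called in all 6 comparisons was 5 under the block. The calls lost under the block were Thbs3 in Sox5 KO against WT (-0.295), Spp1 in Xap5 KO against Nono KO (-0.179) and Tgfbi in Nono KO against Sox5 KO (0.325). With 2 WT libraries, small differences rest on little replication. Tgfbi and Thbs3 held the fewest counts of the members, down to 250 for Tgfbi and 558 for Thbs3 in a single library. Their SE in Xap5 KO against WT was 0.15 and 0.125, where that of the other members was 0.0647 to 0.0794. The parts of depth and of the spread between libraries were not tested.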
